A study of Rattus norvegicus with 12 samples.

Results

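The cytosolic ribosomal protein genes encode the protein parts of the ribosomes that read messenger RNA outside mitochondria. The rule for members used the symbol alone and no measured value, though earlier results of these data were known when they were chosen. Every gene whose symbol starts with Rpl or Rps followed by a digit was taken, plus Rplp0, Rplp1, Rplp2 and Rpsa. The Rps6k kinases, Rps19bp1, Rpl7l1 and numbered pseudogene symbols were left out. The rule took 83 of the 17337 genes in the count tables, 50 of the large subunit (3 of them stalk proteins) and 33 of the small subunit. RNA came from whole blood of adult male rats of the strains F344, a Fischer strain, and WKY (Wistar Kyoto), and the study asked how the strains differ in their response to chronic restraint stress (CRS). The 4 groups of 3 libraries each were unstressed F344, stressed F344, unstressed WKY and stressed WKY. Rats of all groups were about 3 months old as obtained and acclimated for 2 weeks per one label, and 70 to 90 days old at the first contextual fear conditioning per another. These ages do not match fully. They then spent 4 weeks in the home cage. Stressed rats were restrained in bags for 2 hours a day over 2 weeks, and unstressed rats stayed in the home cage. All groups, unstressed ones included, went through a second fear conditioning and were killed by decapitation 24 hours after its second day. "Unstressed" therefore means without restraint, not without any handling. Whether every library is a different rat is not said in the labels, and p-values therefore cover the spread among these libraries alone, which may be partly technical.

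Each ribosome holds 1 copy of nearly every one of these proteins, assembled on ribosomal RNA in the nucleolus, and the stalk proteins recruit the elongation factors. Messages of this family are known to start with a C followed by a run of pyrimidines, the terminal oligopyrimidine (TOP) tract, through which growth signalling by mTOR sets how strongly they are translated. In blood, ribosomal protein messages are found in white cells, in platelets and in reticulocytes, the young red cells that still make globin on ribosomes kept from their nucleated stage.

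Start sites are shown first because the tract is the sequence the family is known for. Of the 83 genes, 66 had an entry in RefSeq's promoter table (build GRCr8, another build than the rn6 of the counts). Each window below runs 5′ to 3′ on the gene's strand, from 15 bases before to 15 bases after the start of transcription. Capitals mark the unbroken run of C and T that covers the first transcribed base. The windows are those of 4 genes that differed between the strains (Rpl35, Rpl37, Rpl38 and Rpl27a) and of 3 well-counted genes (Rplp0, Rplp1 and Rps14).
Rpl35, chr3:43165907-43165936, minus strand: cgCCCCTTCCTCTTTCTCTCgaaccgggcg
Rpl37, chr2:55942930-55942959, plus strand: tggtaggcgtaCTTTCTCTTCCggtctctt
Rpl38, chr10:100200420-100200449, plus strand: cttcgttctttttccgttgttcggtgctcg
Rpl27a, chr1:172974558-172974587, plus strand: cgagacttggtgggCTCCTCCCTCTTTCTT
Rplp0, chr12:46718376-46718405, minus strand: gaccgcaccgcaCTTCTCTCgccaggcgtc
Rplp1, chr8:71290858-71290887, minus strand: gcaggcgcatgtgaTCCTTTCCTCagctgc
Rps14, chr18:56498245-56498274, plus strand: cccttccgTCTCTCTCTTTCCggtggagga

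A run lies over the start site in 6 of these 7 windows, from 8 bases in Rplp0 to 20 in Rpl27a, where it goes on past the window, whereas Rpl38 starts with a G and has none. Across the family, a run of 8 or more C or T lay over the start site in 33 of 66 genes (50%), against 4.43% of the 33469 promoters in the table. The first transcribed base was a C in 35 of 66 (53%), against 24.1% of all promoters. A C at the first base with C or T at each of the next 4 was found in 24 of 66 (36.4%), against 2.63% of all promoters. A second feature was searched in the 300 bases from 250 before to 50 after the start site. The letters CCGGAAG, the core bound by ETS family factors, stood on either strand in 20 of 66 family promoters (30.3%) and in 8.75% of all promoters. TATAAA, the TATA box core, stood in 8 of 66 (12.1%), against 14.2% of all promoters, and AAGATGGCG, the YY1 core, in 3 of 66 (4.55%), against 1.73%. Both strands were searched for each, and the last letters of CCGGAAG can overlap the first of AAGATGGCG. Of the 6 genes that passed the test in a strain comparison, 4 are in the table. Of these 4, 0 carry TATAAA and 0 carry AAGATGGCG. All 4 carry CCGGAAG, shown here in capitals within 30 bases of the gene's strand. A match is a description of the letters only.
Rpl35, chr3:43166032-43166061, minus strand, 128 bases before the start: ccgcagaattccCCGGAAGcggagggcacc
Rpl37, chr2:55942878-55942907, plus strand, 55 bases before the start: gcaccgcactcaCCGGAAGtagttgactgg
Rpl38, chr10:100200395-100200424, plus strand, 28 bases before the start: gggtttaactgcCCGGAAGcggaagcttcg
Rpl27a, chr1:172974457-172974486, plus strand, 104 bases before the start: aagaggcgggcgCCGGAAGtcgctgacgtc

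Depth limited every value. Libraries held 1691956 to 3846263 gene counts, of which the 3 most abundant features took 88.9% to 94.6%, and 90796 to 419789 counts were left for all other genes. The family received 761 to 5581 counts per library, fewest in unstressed F344 replicate 3. Levels are given as CPM, counts divided by the TMM-scaled library size on the usual per-million scale. A count of 0 allows up to 0.606 CPM in the deepest and 3.43 CPM in the shallowest library by TMM-scaled size, covering counting error only. Reads ambiguous between features made up 78.3% to 83.6% of all counts and belong to no gene here. Globin genes, the defining messages of red cells, summed to 23600 to 48800 CPM, and markers of T cells, B cells, monocytes, neutrophils and platelets were detected, with the T cell marker Il7r at 0 in every library.

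Counts at this depth covered most of the family. The filter on low counts kept 73 of the 83 genes, 42 of the large subunit (stalk included) and 31 of the small subunit, and 2781 genes in all. Of the 10 not kept, Rpl30 had 92 counts over the 12 libraries, Rpl36 had 69, Rpl36a had 60 and Rpl36al, a close copy of Rpl36a, had 52. Rps27l had 19 counts, Rpl22l1 had 7, Rpl3l had 4, Rpl37a had 3 and Rps4y2 had 1. Rpl3l, the muscle form of Rpl3, was thus at the edge of detection, and Rpl39l, the copy of Rpl39 known from testis, had no count in any library. Rpl10l has no row in the tables used here. The kept genes therefore do not stand for the whole family at low levels.

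Copies of these genes make single counts uncertain. RefSeq lists numbered pseudogene symbols for 78 of the 83 genes, 898 in all, among them 11 of Rpl35, 7 of Rpl38, 5 of Rpl37, 12 of Rpl27a and 7 of Rpl27. Reads shared with such a copy may have been recorded as ambiguous. Of the genes, 30 hold at least 1 gene of a small nucleolar RNA, 59 in all, the RNAs that guide modification of ribosomal RNA. RefSeq models of 5 genes overlap another gene with a row of its own in the tables: Rpl19 (with Cacnb1), Rpl27a (with Trim66), Rpl31 (with Tbc1d8), Rps23 (with Atp6ap1l) and Rpl29, whose RefSeq model overlaps 10 such genes. In all, 14 genes overlap another gene that is no small nucleolar RNA gene, among them Rpl35 (with Wdr38, which has no row). The strand setting of the counting is not given in the sources used here, so reads of overlapping partners cannot be told apart. The genes lie on 19 chromosomes.

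The family's summed level was 896, 1069 and 870.5 CPM in unstressed F344 and 1127, 1090 and 1090 CPM in stressed F344. It was 966.3, 1184 and 952.9 CPM in unstressed WKY and 1161, 1456 and 907.8 CPM in stressed WKY. The 3 stressed F344 libraries lay above the 3 unstressed ones, whereas the WKY groups overlapped: stressed WKY replicate 2 was the highest of all 12 libraries and stressed WKY replicate 3 was below every unstressed WKY library. The group means were 945.2 ± 108 CPM (SD, n = 3), 1102 ± 21.4, 1034 ± 130 and 1175 ± 274 CPM in the same order. The highest library stood at 1.67 times the lowest. Taken as a share of counts after removal of the 3 most abundant features, with no further scaling, the family made up 0.838% to 1.63%, and there the F344 groups overlapped too (0.838% to 1.47% against 1.13% to 1.62%). With globin counts also removed, its share was 1.38% to 2.93%, and the highest library stood at 2.12 times the lowest. Whether the F344 groups separate thus depends on the scaling.

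**Figure D1:**
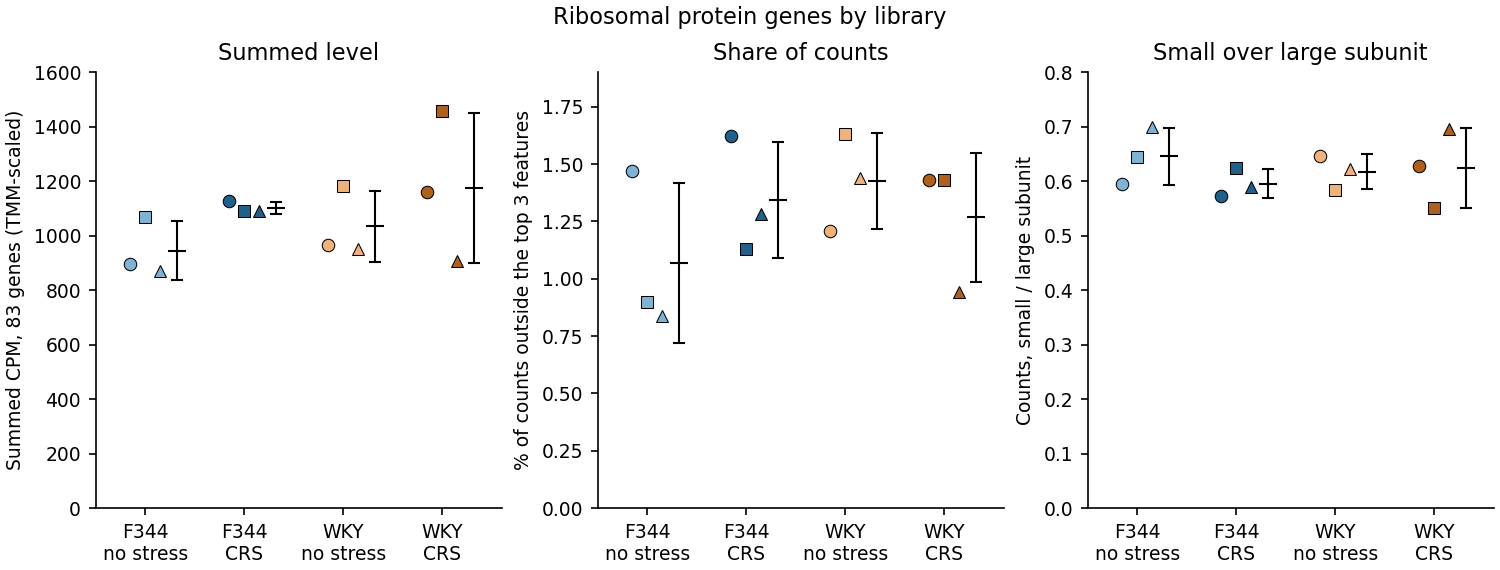
Summed CPM of the 83 genes, their share (%) of counts after removal of the 3 most abundant features, and the ratio of small to large subunit counts, for each of 12 libraries; circles, squares and triangles are replicates 1, 2 and 3, and black bars are mean ± SD (n = 3). Stressed WKY replicate 2 has the highest sum (1456 CPM) and the lowest subunit ratio (0.55), and unstressed F344 replicate 3 has the lowest sum (870.5 CPM) and the highest ratio (0.699).

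The balance of the subunits overlapped between all 4 groups. Counts of small subunit genes divided by those of large subunit genes were 0.594, 0.645 and 0.699 in unstressed F344, 0.572, 0.625 and 0.59 in stressed F344, 0.647, 0.583 and 0.623 in unstressed WKY, and 0.628, 0.55 and 0.696 in stressed WKY. The exact 95% counting intervals of the lowest and the highest library, 0.512 to 0.59 in stressed WKY replicate 2 and 0.603 to 0.809 in unstressed F344 replicate 3, did not overlap. Libraries of 1 group spread as widely, since stressed WKY held both 0.55 and 0.696.

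Single genes varied more than the sum. Over the 12 libraries the coefficient of variation of a gene's CPM had a median of 0.362 among the 73 genes that passed the filter. It was lowest in Rpl3, which helps form the peptidyl transferase centre, at 0.139, with levels of 17.1 to 29 CPM. Rps27a (0.19), Rps7 (0.191) and Rps6 (0.192) followed. Among the highest were Rpl38 (0.883), Rpl27 (0.841) and Rps26 (0.738). These had few counts over the 12 libraries (126, 119 and 134), so that counting error adds to their spread. These 7 genes were picked by this measure, as a description.

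Libraries differed in which of them held the extremes. Stressed WKY replicate 2 had the highest level of 19 of the 73 genes (26%) and stressed WKY replicate 1 that of 15 (20.5%). Over all 2781 genes tested, these libraries held the highest level of 12.6% and 6.69%. Stressed WKY replicate 3, of the same group, held the highest level of none of the 73. Unstressed F344 replicate 3 held the lowest level of 19 genes (26%, against 19.8% of all genes), unstressed WKY replicate 3 that of 13 (17.8%, against 7.91%) and stressed WKY replicate 3 that of 10 (13.7%, against 7.34%).

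Restraint in F344 was compared first. No ribosomal protein gene passed the threshold: edgeR's quasi-likelihood test called 0 of 73 at a Benjamini-Hochberg adjusted p of 0.05. It called 0% of all genes tested, and DESeq2 called 0 as well. Fold changes were positive for 54 of 73 genes (74%, beside 51% of all genes), with a median log2 fold change of 0.24 beside 0.02 over all genes. At an unadjusted p of 0.05, 1 of 73 passed (1.37%), against 4.67% of all genes. In 8 of 73 genes (11%) the stressed and unstressed libraries did not overlap, beside 11.9% of all genes in either direction. All 8 were higher after restraint, and the share of all genes by direction was not taken. Among these 8 were Rpl5, Rpl13, Rpl29, Rplp0, Rps2, Rps3a and Rps6. The 95% interval of the difference lay within 2-fold for 30 of the 73, so for the other 43 a change of 2-fold was within reach of the error.

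Among single genes in F344, Rps9, a small subunit protein that helps set decoding accuracy, had the smallest p. It stood at 5.79, 6.09 and 13.7 CPM in unstressed F344 and at 14.9, 14.3 and 13.4 CPM in stressed F344. The third unstressed library reached the stressed ones, so the groups overlapped (log2 0.90, SE 0.364, edgeR adjusted p = 0.918). Rplp0, the base of the ribosomal stalk, stood at 70.6, 49.3 and 61.8 CPM in unstressed F344 and at 103, 85 and 70.8 CPM in stressed F344, which barely separated the groups (log2 0.51, SE 0.318, edgeR adjusted p = 0.943). On the other side, Rps15, a protein of the small subunit's head, had a log2 difference of -0.52 (SE 0.44, edgeR adjusted p = 0.996). Rps29 (log2 0.67) and Rps28 (log2 -0.39) did not pass either.

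Restraint in WKY gave no call either, with 0 of 73 in edgeR beside 0% of all genes, and 0 in DESeq2. Fold changes were positive for 47 of 73 (64.4%, beside 51.2% of all genes), with a median of 0.12 beside 0.02 over all genes. The median was -0.20 where libraries were scaled by their counts without the 3 top features, which moved the median of all genes by -0.32. Unadjusted, 4 of 73 passed (5.48%), near the 5.79% of all genes. The groups did not overlap for 5 genes (6.85%, beside 10.1% of all genes): 2, Rps2 among them, were higher and Rpl21, Rpl24 and Rpl41 lower in the stressed libraries. Intervals lay within 2-fold for 33 of 73.

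Rpl29, which also binds heparin at the cell surface, stood at 10.4, 25.2 and 14.3 CPM in unstressed and at 28, 41.4 and 15.4 CPM in stressed WKY, where replicate 3 lay within the unstressed range (log2 0.76, SE 0.337, edgeR adjusted p = 0.787). Rps2, a small subunit protein at the entry of the messenger channel, was higher in all 3 stressed libraries, at 43.8, 58 and 41.1 CPM against 29.2, 40.6 and 32.1 CPM (log2 0.48, edgeR adjusted p = 0.958). Rpl41, the shortest ribosomal protein, was lower in all 3, at 7.13, 12.2 and 11.8 against 19.1, 17.4 and 12.4 CPM (log2 -0.68, edgeR adjusted p = 0.845). Rpl39, which lines the exit tunnel, had a log2 difference of -0.77, and Rpl24, at the face between the subunits, one of -0.36. Neither passed.

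Averaged over the strains, restraint again called 0 of 73 genes, beside 0.036% of all genes. DESeq2 called 0 of the 73, beside 3 of all 2781 genes. Fold changes were positive for 54 of 73 (74%, beside 50.3% of all genes), with a median of 0.18 beside 0.003 over all genes. The large subunit had a median of 0.22 and the small subunit one of 0.15. Unadjusted, 5 of 73 passed (6.85%), against 7.08% of all genes, all 5 positive, Rpl29, Rplp0, Rps29 and Rps3a among them. Rps3a and Rps29 in this comparison were named after their values were seen. Rpl29 had a log2 difference of 0.65 (SE 0.245, edgeR adjusted p = 0.551) and Rplp0 one of 0.49 (SE 0.222, edgeR adjusted p = 0.664). The 3 genes of at least 5 CPM with the smallest p in the negative direction were Rpl41 (log2 -0.34), Rpl39 (log2 -0.34) and Rpl9 (log2 -0.27). With both strains together, 61 of 73 intervals lay within 2-fold.

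Markers of platelets and monocytes were measured beside the family. Platelet markers summed to 33.2 to 51.8 CPM in unstressed F344 and 67 to 76.5 CPM in stressed F344, and to 43.3 to 86.6 and 77.9 to 123 CPM in the WKY groups. All 5 tested platelet markers had positive differences averaged over strains, with a median of 0.68, and none passed. Monocyte markers summed to 52.6 to 66.7 CPM in unstressed and 74.3 to 80.8 CPM in stressed F344, and to 113 to 128 and 115 to 161 CPM in WKY. Their part in the family's differences was not tested. In whole blood, fewer cells of a type and less RNA per cell cannot be told apart.

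**Figure D2:**
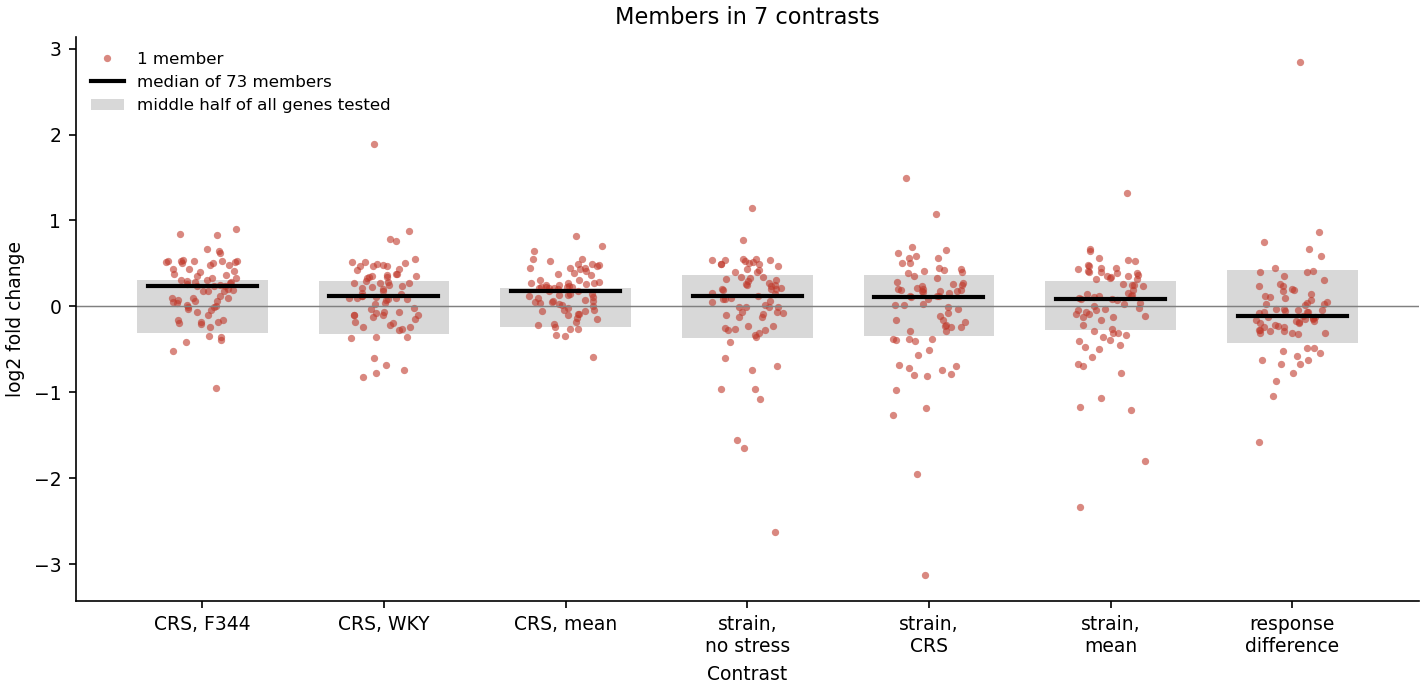
Log2 fold change of each of the 73 tested genes (red points) in 7 comparisons, with their median (black line) and the range from the lower to the upper quartile of all 2781 genes (grey box); strain comparisons are WKY minus F344, CRS comparisons are stressed minus unstressed, and the response difference is the CRS difference in WKY minus that in F344. Medians stay between -0.11 and 0.24, and a few genes lie far below the rest in the 3 strain comparisons.

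The strains differed in a few genes of the large subunit. Averaged over unstressed and stressed libraries, 5 of 73 genes passed edgeR's test at an adjusted p of 0.05 (6.85%), beside 3.74% of all genes tested. Rpl35, Rpl38, Rpl37 and Rpl27a were lower in WKY (4 genes, 5.48%, beside 1.62% of all genes lower in WKY). The count of genes higher in WKY was 1 (1.37%, beside 2.12% of all genes). DESeq2 also called 5 of the 73, beside 75 of all 2781 genes. All 4 lower genes encode large subunit proteins, and 0 of 31 small subunit genes passed, with 5 of them at an unadjusted p under 0.05 and none called by DESeq2. Whether the subunits differ in this was not tested. Standard errors were smaller in the family (median 0.258) than over all genes (0.321).

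Rpl35 sits at the exit of the peptide tunnel, where factors that handle the new chain dock. It stood at 14.1, 22.5 and 13.7 CPM in unstressed F344 and at 21.4, 28.7 and 17 CPM in stressed F344. It stood at 7.37, 4.26 and 3.87 CPM in unstressed WKY and at 4.84, 6.54 and 5.91 CPM in stressed WKY. Every one of the 6 WKY libraries was below every one of the 6 F344 libraries. Their log2 difference was -1.80 (SE 0.249, edgeR adjusted p = 5.98e-06), which is 3.49-fold lower in WKY. The call rests on 374 counts in F344 and 107 in WKY. The overlap of Rpl35 with Wdr38 applies here.

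Rpl38 is a small protein known in mice for its part in translating Hox messages. Its level was 1.93, 5.48 and 5.72 CPM in unstressed F344 and 6.66, 8.19 and 5.68 CPM in stressed F344. It was 2.07, 0.98 and 0.39 CPM in unstressed WKY and 1.27, 0 and 0.66 CPM in stressed WKY. Unstressed F344 replicate 1 lay just below unstressed WKY replicate 1, and all other F344 libraries were above all WKY libraries. With a log2 difference of -2.34 (SE 0.437, edgeR adjusted p = 0.000646), it was 5.06-fold lower in WKY. Only 106 counts in F344 and 20 in WKY stand behind it, so its size is uncertain.

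Rpl37 is a zinc-binding protein of the large subunit. It stood at 4.14, 10.4 and 12.6 CPM in unstressed and 9.49, 15 and 10.6 CPM in stressed F344, and at 2.76, 5.9 and 2.71 CPM in unstressed and 4.08, 7.41 and 3.29 CPM in stressed WKY. Unstressed F344 replicate 1 lay among the WKY libraries, and the other 5 F344 libraries lay above all of them. The level was 2.25-fold lower in WKY (log2 -1.17, SE 0.301, edgeR adjusted p = 0.0198).

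Rpl27a, another protein of the large subunit, stood at 9.93, 10.4 and 17.2 CPM in unstressed and 8.88, 10.2 and 16.4 CPM in stressed F344. The WKY libraries had 5.3, 8.19 and 4.64 CPM without stress and 4.84, 8.72 and 2.63 CPM after it. The strains did not overlap, though stressed WKY replicate 2 (8.72 CPM) came close to stressed F344 replicate 1 (8.88 CPM). It was 2.1-fold lower in WKY (log2 -1.07, SE 0.276, edgeR adjusted p = 0.0202). Its overlap with Trim66 applies here.

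The 2 strains' libraries were free of overlap for 3 of 73 genes (4.11%, Rpl35 and Rpl27a among them), beside 2.34% of all genes.

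**Figure D3:**
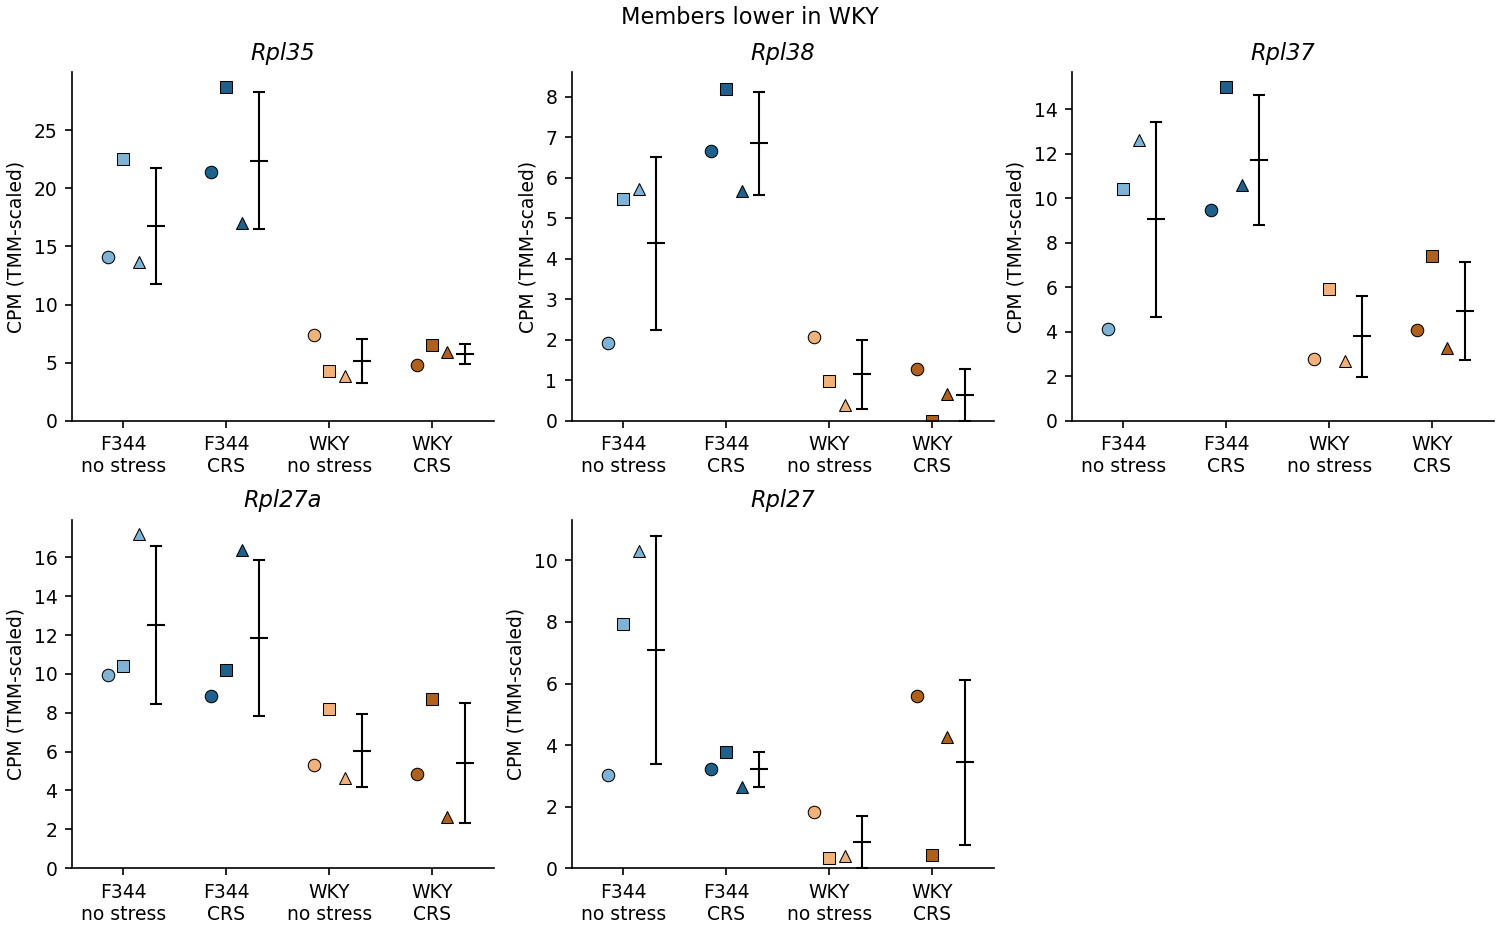
TMM-scaled CPM of the 5 genes that were lower in WKY in at least 1 strain comparison, 1 panel each with its own axis from 0; points are libraries (circle, square and triangle for replicates 1, 2 and 3) and black bars are mean ± SD (n = 3). Rpl35 and Rpl27a lie lower in all 6 WKY libraries (at most 7.37 and 8.72 CPM), and Rpl27 is low in unstressed WKY and in stressed WKY replicate 2.

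The calls were not equally firm. Rpl35 passed under all 21 alternatives tried for this comparison. Rpl38 passed under 19 of the 20 that kept it (a minimum count of 30 did not), and was lost without unstressed F344 replicates 2 and 3 together, the libraries with the fewest family counts (1755 and 761; adjusted p = 0.0974). Rpl37 and Rpl27a passed under 12 of 21 each. Leaving out any 1 of 6 libraries ended each of these calls: for Rpl37 they were unstressed F344 replicates 2 and 3, unstressed WKY replicates 1 and 3, stressed F344 replicate 2 and stressed WKY replicate 1 (adjusted p of 0.0501 to 0.104). For Rpl27a they were unstressed F344 replicate 3, unstressed WKY replicates 1 and 3, stressed F344 replicate 3 and stressed WKY replicates 1 and 3 (adjusted p of 0.0511 to 0.12).

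Below the threshold, 6 more large subunit or stalk genes had an unadjusted p under 0.05 in the strain average: Rpl24, Rpl27, Rpl4, Rpl18, Rplp0 and Rplp1. Rpl24 stood at 13.7 to 24.6 CPM in F344 and at 8.15 to 15.9 CPM in WKY (log2 difference -0.67, SE 0.223, edgeR adjusted p = 0.0916). Only unstressed WKY replicate 3 reached the F344 range. Rpl4 stood at 21.5 to 33.9 CPM in F344 and at 31.5 to 48.4 CPM in WKY (log2 difference 0.54, SE 0.204, edgeR adjusted p = 0.159). Stressed F344 replicate 3, at 33.9 CPM, was the one F344 library within the WKY range. Rpl18 stood at 2.29 to 9.89 CPM in F344 and at 8.52 to 17 CPM in WKY (log2 difference 0.67, SE 0.258, edgeR adjusted p = 0.167), with stressed F344 replicate 1 inside the WKY range.

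The small subunit genes nearest to the threshold, named after their values were seen, went both ways. Rps23, which sits at the decoding centre and overlaps Atp6ap1l, was at 3.43 to 10.1 CPM in F344 and 1.55 to 6.37 CPM in WKY (log2 difference -0.77, SE 0.29, edgeR adjusted p = 0.155). Rps27, a zinc-binding protein, was at 3.43 to 7.31 against 1.94 to 5.57 CPM (log2 -0.69), and Rps12 at 9.93 to 22.5 against 6.97 to 16.1 CPM (log2 -0.50). Rps18, a protein of the small subunit's head, lay higher, at 37.4 to 66.6 CPM in WKY against 16.8 to 44.6 CPM in F344 (log2 0.56, SE 0.232, edgeR adjusted p = 0.211). Unstressed F344 replicates 2 and 3, the libraries with the fewest family counts, gave Rps18 its highest F344 levels (40.8 and 44.6 CPM), and Rps18 passed when both were left out. Rps15 lay higher too (log2 0.64). In all 5 genes the strains overlapped.

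Each treatment gave its own strain comparison, from separate libraries. Without stress, 2 of 73 genes passed (2.74%, beside 0.683% of all genes), Rpl35 and Rpl27, both lower in WKY. DESeq2 called 2 of the 73, beside 21 of all 2781 genes. It gave no adjusted p for 3 of the 73 and for 1025 of all genes. Rpl35 had a log2 difference of -1.65 (SE 0.362, edgeR adjusted p = 0.0156). Rpl27, a large subunit protein, stood at 3.03, 7.92 and 10.3 CPM in unstressed F344 and at 1.84, 0.33 and 0.39 CPM in unstressed WKY, where its counts were 8, 1 and 1, a log2 difference of -2.62 (SE 0.662, edgeR adjusted p = 0.049). That call stood under 8 of 21 alternatives, and the one of Rpl35 under 16 of 22. Both ended without unstressed F344 replicate 2 or unstressed WKY replicates 2 or 3, and that of Rpl27 also without unstressed F344 replicate 3 or any single stressed F344 library.

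Other genes without stress did not pass. Rpl18 (log2 0.77) and Rpl4, which lines the exit tunnel (log2 0.52), lay higher in all 3 unstressed WKY libraries, and Rpl27a lower in all 3 (log2 -0.96). Unadjusted, 7 of 73 passed (9.59%), near the 9.31% of all genes. Fold changes were positive for 43 of 73 (58.9%, beside 49.3% of all genes), with a median of 0.12 beside -0.01 over all genes.

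After restraint, 3 of 73 genes passed (4.11%, beside 1.29% of all genes), Rpl35 and Rpl38 among them. DESeq2 called 3 of the 73, beside 35 of all 2781 genes. Rpl35 was lower in stressed WKY than in stressed F344 (log2 -1.96, SE 0.342, edgeR adjusted p = 0.000632). Rpl38 was lower too (log2 -3.13, SE 0.589, edgeR adjusted p = 0.00143), with 33, 24 and 28 counts in stressed F344 against 5, 0 and 2 in stressed WKY. Rpl35 passed under all 22 alternatives here and Rpl38 under 20 of 21, its call being lost with limma-voom (adjusted p = 0.07).

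Among genes that did not pass after restraint were Rpl24 (log2 -0.98, SE 0.308, edgeR adjusted p = 0.126), Rpl37 (log2 -1.27, SE 0.393, edgeR adjusted p = 0.116) and Rps15 (log2 1.08, SE 0.407, edgeR adjusted p = 0.265). Unadjusted, 12 of 73 passed (16.4%), beside 11% of all genes, and in the average over treatments 16 of 73 (21.9%), beside 14.7%. Fold changes after restraint were positive for 41 of 73 (56.2%, beside 50.3% of all genes), with a median of 0.11.

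The strain difference of a gene without stress went with its strain difference after restraint. These comparisons share no library. Over the 73 genes, Pearson's r was 0.64 and Spearman's rho 0.654, and 55 of 73 (75.3%) had the same sign. Over all 2781 genes, r was 0.384, rho was 0.293 and 60% had the same sign. The family was measured with smaller errors. Its median SE was 0.387 without stress and 0.344 after restraint, beside 0.477 and 0.432 over all genes. The part of this in the higher r was not tested. The restraint differences in F344 and in WKY, which also share no library, had an r of 0.01 and a rho of 0.287 over the 73 genes, with the same sign in 46 of 73 (63%). Over all genes, r was 0.088, rho was 0.085 and 53.4% had the same sign. These values run across genes, which are not independent replicates and share the libraries' depth and scaling, and they carry no test.

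**Figure D4:**
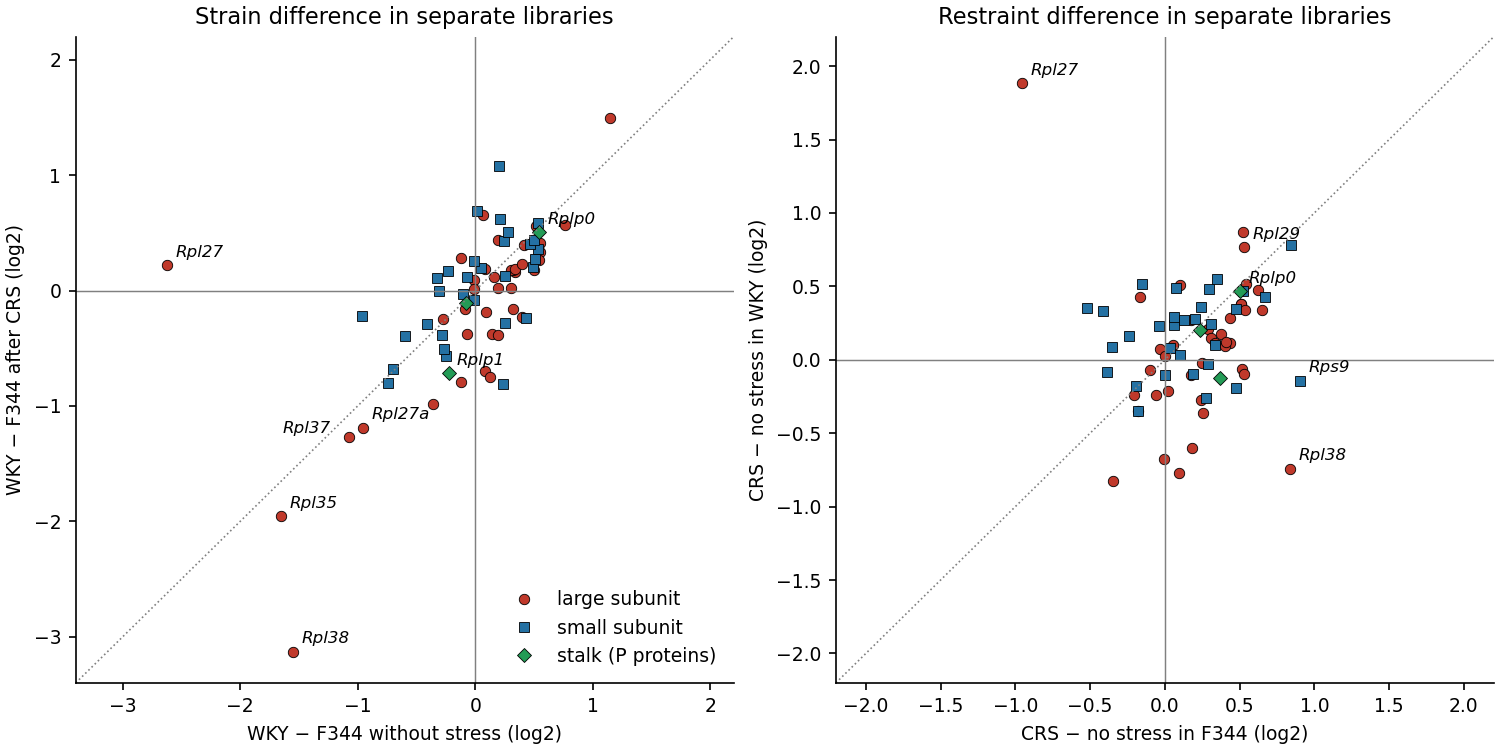
Log2 differences of the 73 genes in separate libraries: left, WKY minus F344 without stress (x) against after CRS (y); right, CRS minus no stress in F344 (x) against WKY (y); red circles are large subunit, blue squares small subunit and green diamonds stalk genes, and the dotted line marks equal values. Rpl35, Rpl38, Rpl37 and Rpl27a lie at the lower left on the left side (r = 0.64, rho = 0.654). The right side has an r of 0.01 and a rho of 0.287.

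No gene passed the test of whether its response to restraint differed between the strains. edgeR called 0 of 73, beside 0% of all genes, and DESeq2 called 0. Unadjusted, 2 of 73 passed (2.74%), against 3.81% of all genes: Rpl27 (log2 2.84, edgeR adjusted p = 0.993) and Rps9 (log2 -1.05, SE 0.504, edgeR adjusted p = 0.993). Rpl27 was the gene that passed between the strains without stress and stood at log2 0.22 after restraint, where its stressed WKY libraries had 22, 1 and 13 counts. Rps9 had a restraint difference of 0.90 in F344 and -0.14 in WKY. Rps15 (log2 0.87), Rpsa (log2 0.67), Rpl15 (log2 0.59), Rpl41 (log2 -0.67) and Rpl24 (log2 -0.62) came next in their directions. Only 9 of 73 intervals of this difference lay within 2-fold, so it was measured coarsely.

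Ratios of counts within a library need no scaling between libraries. The ratio of Rpl35 to Rpl4 counts, chosen after their values were seen and given as a description, was 0.58, 0.841 and 0.522 in unstressed F344 and 0.883, 1.33 and 0.503 in stressed F344. It was 0.218, 0.106 and 0.108 in unstressed WKY and 0.1, 0.174 and 0.188 in stressed WKY. The lowest F344 library (0.503) was above the highest WKY library (0.218), so the strains did not overlap. Rpl4 did not pass between the strains, but its own log2 difference of 0.54 widens the separation, so the ratio is no test of the scaling.

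**Figure D5:**
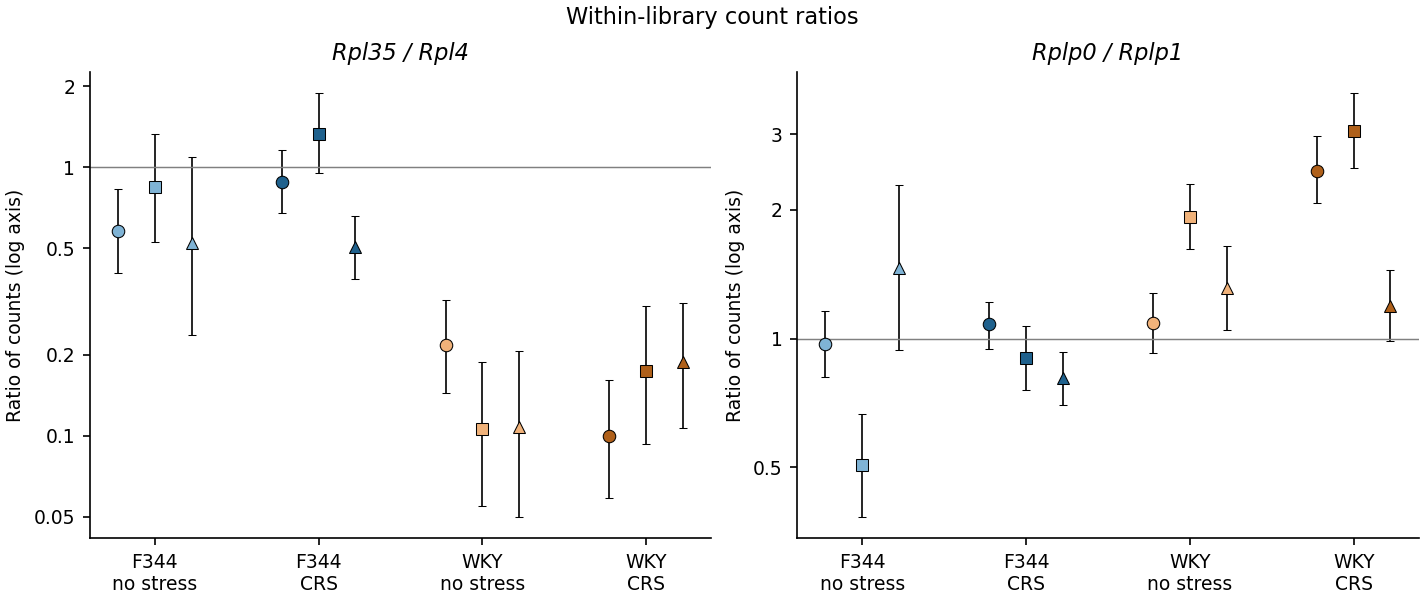
Ratio of counts within each library on a log axis, Rpl35 to Rpl4 (left) and Rplp0 to Rplp1 (right); bars are exact 95% binomial intervals, which cover counting error only, and symbols mark replicates 1, 2 and 3. All F344 libraries lie at or above 0.503 and all WKY libraries at or below 0.218 on the left, and the strains overlap on the right.

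The stalk is the part of the ribosome that elongation factors meet. Rplp0 was measured with 3455 counts over the 12 libraries and Rplp1 with 2774. Rplp1 and Rplp2 form the flexible arms on the base of Rplp0. Averaged over treatments, Rplp0 was at log2 0.53 in WKY against F344 (SE 0.222, edgeR adjusted p = 0.225), Rplp1 at log2 -0.47 (SE 0.207, edgeR adjusted p = 0.26) and Rplp2 at log2 -0.09 (SE 0.225, edgeR adjusted p = 0.901), and none passed. Rplp1 stood at 95.9, 94.2 and 87.7 CPM in stressed F344 and at 44.1, 59.3 and 66 CPM in stressed WKY, without overlap (log2 -0.72, edgeR adjusted p = 0.314). The ratio of Rplp0 to Rplp1 counts ran from 0.506 to 1.46 in F344 and from 1.09 to 3.06 in WKY, so the strains overlapped.

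Genes known for roles beyond the ribosome's core work were followed as well, and none passed in any comparison. Rpl5 and Rpl11 hold Mdm2 when assembly fails and so link ribosomes to p53. Rpl5 was at 7.63 ± 2.51, 11 ± 0.58, 10.1 ± 0.621 and 10.8 ± 4.19 CPM (SD, n = 3) in unstressed F344, stressed F344, unstressed WKY and stressed WKY. Rpl11, in that order, was at 4.86 ± 1.71, 5.26 ± 0.717, 4.89 ± 0.658 and 3.38 ± 1.61 CPM. Rps19, the gene most often mutated in Diamond-Blackfan anaemia, was at 10.5 ± 1.89, 11.4 ± 3.44, 13.3 ± 4.22 and 16.6 ± 12.8 CPM, with 30.5 CPM in stressed WKY replicate 2 and 5.26 CPM in replicate 3. Rps14, whose loss marks a form of myelodysplasia, was at 45.4 ± 7.7, 55.2 ± 10.2, 54.1 ± 15.6 and 45.3 ± 11.4 CPM. No comparison passed for these 4 genes, and their values per group are given here as a description.

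Rps6, the target of S6 kinase, was at 12.5 ± 2.4, 15.8 ± 1.04, 17.9 ± 1.23 and 19.1 ± 2.88 CPM (SD, n = 3), with a log2 difference between the strains of 0.39 (SE 0.211, edgeR adjusted p = 0.398). Its unstressed WKY libraries (17, 19.3 and 17.4 CPM) were all above its unstressed F344 libraries (14.1, 9.75 and 13.7 CPM). Rpl22, which is dispensable for translation but needed by developing T cells, was at 4.04 ± 2.48, 2.62 ± 0.219, 4.21 ± 1.82 and 2.33 ± 0.607 CPM, and its restraint difference averaged log2 -0.59 (SE 0.357, edgeR adjusted p = 0.837). Rpsa, also called the laminin receptor, ranged from 9.68 to 49.7 CPM within WKY, and Rpl10, a protein that joins late in assembly, from 9.29 to 25.7 CPM. Rps27a, made as a fusion with ubiquitin, ran from 5.42 to 9.42 CPM over all 12 libraries.

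Ribosomal proteins with other names were compared too. Of 3 that passed the filter, 0 passed the test in any comparison. Fau, made as a fusion with a ubiquitin-like sequence, had a restraint difference averaged over strains of log2 0.68 and a strain difference averaged over treatments of log2 -0.12. Gnb2l1, the scaffold also called Rack1, had log2 0.29 and 0.49.

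The rest of the translation machinery was followed through lists. Of 20 tested initiation factors, 1 passed in the strain average: Eif1, which guards the choice of the start codon, was lower in WKY. It stood at 11.6, 25 and 25.2 CPM in unstressed F344, 20.2, 30.7 and 28 CPM in stressed F344, 12, 13.8 and 6.97 CPM in unstressed WKY, and 6.88, 10 and 12.8 CPM in stressed WKY. Unstressed F344 replicate 1 lay among the WKY libraries and the other F344 libraries lay above them. It was thus lower in WKY by the strain average (log2 -1.12, SE 0.246, edgeR adjusted p = 0.00423) and after restraint alone (log2 -1.41, SE 0.339, edgeR adjusted p = 0.0204). The 20 factors had a median of -0.03 in the strain average, beside -0.01 over all genes.

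Other messages with a TOP tract, in a list kept apart from the elongation and initiation factors, were split. Of 8 tested, Tpt1, which encodes translationally controlled tumour protein, had a log2 difference of -0.76 (SE 0.214) and was lower in WKY, with an edgeR adjusted p of 0.0412. The list's median was -0.05. Tpt1 stood at 191 to 413 CPM in F344 and at 140 to 215 CPM in WKY, with unstressed F344 replicate 1 (191 CPM) among the WKY libraries. Btf3 came next (log2 -1.31, SE 0.395, edgeR adjusted p = 0.0525). None of the 7 tested elongation factors passed in any comparison, with Eef2 at log2 0.31 and Eef1a1 at log2 0.02 between the strains (list median -0.26). Of 38 ribosome assembly genes with a row, only 3 passed the filter and 0 the test, among them Ncl, the nucleolar protein nucleolin (log2 -0.80, SE 0.315, edgeR adjusted p = 0.176). None of 5 tested genes of growth signalling to ribosomes passed, with Mtor at log2 0.22 and Myc at log2 -0.34. In the comparisons of stressed with unstressed libraries, none of these lists had a gene past the threshold in either strain or in their average.

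Markers of some cell types differed between the strains beside these genes. Monocyte markers summed to 52.6 to 80.8 CPM in F344 and to 113 to 161 CPM in WKY, without overlap. All 3 tested were higher in WKY in sign and 2 passed, Cybb (log2 1.73) and Lyz2 (log2 1.00). Lyz2 made up most of the monocyte sums, at 45.7 to 67.6 CPM in F344 and 91.4 to 139 CPM in WKY. T cell markers summed to 38.9 to 57.2 CPM in F344 and to 24.4 to 34.6 CPM in WKY, also without overlap, with all 7 tested lower in sign, a median of -0.97 and 1 past the threshold, Lef1 (log2 -1.08, edgeR adjusted p = 0.0381). Of 5 platelet markers, 4 were higher in WKY in sign, and Itgb3 (log2 0.81) and Pf4 (log2 0.80) passed. Gp1ba went the other way (log2 -0.43) and did not pass. None of 3 B cell, 1 NK cell, 5 neutrophil and 6 red cell precursor markers passed, and of 6 globin genes Hbb-b1 was lower in WKY (log2 -1.67). The part of these cells in the differences of Rpl35, Rpl38, Rpl37 and Rpl27a was not tested.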

How the data were processed

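Whole blood total RNA for 12 libraries, 3 in each of 4 groups, was collected in PAXgene tubes and prepared by Ion Proton protocols, per the labels' protocols. The deposited values are whole-number counts per gene, not normalised. Build rn6 and the tools TopHat2 2.1.0, Cufflinks 2.2.1 and cutadapt 1.14 are listed, without their roles, in the submitters' processing notes. Neither the counting program nor its strand use is given in the sources used here. The 5 rows that name no gene (80.9% to 86.6% of all counts) were left out.

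Counts were tested with edgeR 4.0.16 (R 4.3.3; quasi-likelihood, TMM, filterByExpr with a minimum count of 10), 1 fit of 4 group means over all 12 libraries, adjusted by Benjamini-Hochberg over 2781 genes, threshold 0.05. The step was tested on simulated data. DESeq2 1.42.0, limma-voom (limma 3.58.1), other scalings, filters and left-out libraries were alternatives. The genes and lists were chosen with earlier results of these data known. Named genes were those past the threshold in any comparison, the 3 of at least 5 CPM with the smallest p in each direction, and a set list of 12 known genes and the paralogs. Levels per coding length were not used here, so levels of different genes are not compared. Some genes of the family are not reported here by name, though counts and sums over the family hold them.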

Additional observations from a re-analysis of the deposited data

How the results depend on the processing

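Of the alternatives tried, none gave a ribosomal protein gene a call for restraint in either strain, for their average or for the difference in response. Between the strains without stress, 2 genes of the family were called, beside 19 over all genes. With DESeq2 size factors, limma-voom, a minimum count of 30 or a fit of the compared groups only, 1 remained (Rpl35 each time). Calls over all genes were then 18, 21, 19 and 9 in that order. With no filter 1 was called, neither Rpl35 nor Rpl27 (22 over all genes). With library size outside the 3 most abundant features as the scaling, 0 were called (12 over all genes). Without unstressed F344 replicates 2 and 3 together, the libraries with the fewest family counts, 0 were called too (5 over all genes). Leaving out single libraries gave 0 to 2. Averaged over treatments, the 5 calls (104 over all genes) became 3 with that scaling (57 over all genes) and 3 with no filter (89 over all genes). Rpl35 and Rpl38 were among them both times. Without those 2 libraries 3 were called (43 over all genes), Rpl35 and Rps18 among them. Leaving out single libraries gave 3 to 6, and a minimum count of 30 gave 5, with Rpl24 in and Rpl38 not tested.

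Scaling by library size outside the 3 most abundant features moved the median of all genes by -0.32 for restraint in WKY, -0.14 for its average, 0.21 and -0.16 between the strains without stress and after restraint, and -0.41 for the difference in response, and the family's medians have to be read against these. Under it the family's median was -0.20 for restraint in WKY, 0.34 between unstressed strains and -0.53 for the difference in response. With no filter the median was 0.57 for restraint in F344 and -0.43 for the difference in response, over 82 genes. Between the strains after restraint it went from 0.11 to -0.04. The median of all genes with no filter was not taken, so these values have no background beside them. The highest library stood at 1.95 times the lowest when the share of counts was used, beside 1.67 times. The sign turned for Rpl39 averaged over strains without those 2 libraries (0.37), and for Rpl9 averaged over strains without both (0.21). Leaving out single libraries gave Rpl9 values of -0.469 to 0.041, the highest without unstressed F344 replicate 2. The cause was not tested.

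Same-numbered libraries of different groups deviated together little (correlations of -0.089 to 0.201). With 3 libraries a group, such values cannot show whether these libraries share more than a number. With the replicate block, the same 5 genes were called averaged over treatments, 2 without stress and 3 after restraint, and 120 of all genes in place of 104. Depth limits the genes of few counts most, Rpl38 and Rpl27 among those called.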
